A study of Macaca mulatta with 8 samples.

Results

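The open chromatin of macaque cortex cells cultured from post-conceptional days 80 and 60 (E80 and E60) is described here through the regions that were called at only 1 of these stages. ATAC-seq, in which the transposase Tn5 cuts and tags accessible DNA, had been run on 4 stages of Macaca mulatta, and E80 and E60 gave peak sets of nearly equal size (60278 and 61956 peaks). In the authors' table of 112696 merged regions, 72358 held a macaque peak, and 68186 of these lay on autosomes and were called at E80 or E60. Regions with an E80 peak and no E60 peak, called E80-specific here, numbered 10457, which is 15.3% of the 68186. Regions with an E60 peak and no E80 peak, called E60-specific, numbered 12014, or 17.6%. The other 45715 were called at both stages and serve as the background. The peak calls at E80 and E60 chose the members, so the sizes of the classes are a description and support nothing. Of the 22471 discordant regions, 46.5% were E80-specific (95% interval 45.9 to 47.2). All intervals are exact Clopper-Pearson intervals over regions. They cover counting error alone, and regions are not independent replicates.

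Each stage was 1 culture of cells from frozen cortical tissue, and its 2 libraries were technical, each of 100000 cells of that culture, so no difference between E80 and E60 has a replicate check. All cultures shared their treatment: Hibernate-E and the CEPT cocktail before freezing, papain dissociation, plates coated with PEI and laminin LN521, and a progenitor-enriching medium with FGF2-G3, EGF, BDNF and insulin. Nuclei were tagged by the Omni-ATAC protocol. E50 and E85 cultures, treated in the same way, had smaller sets of 19833 and 30701 peaks, and here they serve as calls that the choice of members did not use. The series concerns HAQERs, segments that evolved fast in human ancestry, and these were not analysed here. A region may have been open below the calling threshold where it was not called, and in bulk cultures fewer cells of a type and less accessibility per cell cannot be told apart.

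Cortical progenitors, the radial glia, first make deep-layer neurons, later upper-layer neurons, and then glia. Enhancers away from promoters carry most of the stage- and cell-type-specific accessibility, whereas promoters of widely used genes, often rich in CpG, are open in most cells. The letters under an open region show which factors could bind. AP-1, a dimer of FOS and JUN proteins, responds to growth factors and adhesion and binds TGACTCA, while TEAD proteins, the partners of YAP and TAZ in Hippo signalling, bind ACATTCC. Many homeobox factors of the forebrain bind TAATTA, and bHLH proteins, among them proneural factors, bind the E-box CAGCTG.

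The 6 sequences below show what the members look like, 3 for each stage. By the rule for sequences each lies in a locus with a leading excess, is distal and at most 1 kb wide, and holds the most matches of its class's motifs within 150 bp of the region's centre, so the matches in them chose them. They are 300 bases around the region's centre, read 5′ to 3′ on the plus strand of rheMac10. In the E80-specific sequences the capitals mark AP-1 (TGACTCA or its reverse complement TGAGTCA) and TEAD (ACATTCC or GGAATGT) matches.
GALNT17 intron, chr3:51475318-51475617: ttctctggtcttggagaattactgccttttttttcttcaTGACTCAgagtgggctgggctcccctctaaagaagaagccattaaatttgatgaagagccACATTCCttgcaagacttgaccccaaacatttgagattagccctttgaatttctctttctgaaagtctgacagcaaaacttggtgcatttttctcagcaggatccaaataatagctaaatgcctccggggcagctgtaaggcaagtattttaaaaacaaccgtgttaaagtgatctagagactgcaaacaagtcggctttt
CAMTA1 intron, chr1:216874629-216874928: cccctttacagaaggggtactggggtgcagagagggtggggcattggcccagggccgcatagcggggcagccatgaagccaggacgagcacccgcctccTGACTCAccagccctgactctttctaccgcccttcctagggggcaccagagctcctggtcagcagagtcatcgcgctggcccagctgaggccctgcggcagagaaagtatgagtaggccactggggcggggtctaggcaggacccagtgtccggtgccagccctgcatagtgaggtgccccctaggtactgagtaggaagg
AOPEP intron, chr15:112883268-112883567: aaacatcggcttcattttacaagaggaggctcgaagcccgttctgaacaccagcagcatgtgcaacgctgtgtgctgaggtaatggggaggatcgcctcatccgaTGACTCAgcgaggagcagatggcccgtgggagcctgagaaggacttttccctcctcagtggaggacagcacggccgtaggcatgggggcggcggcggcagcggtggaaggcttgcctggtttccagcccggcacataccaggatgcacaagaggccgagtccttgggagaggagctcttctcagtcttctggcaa

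In the E60-specific sequences the capitals mark TAATTA and CAGCTG, which read the same on both strands.
ADGRL2 intron, chr1:142937822-142938121: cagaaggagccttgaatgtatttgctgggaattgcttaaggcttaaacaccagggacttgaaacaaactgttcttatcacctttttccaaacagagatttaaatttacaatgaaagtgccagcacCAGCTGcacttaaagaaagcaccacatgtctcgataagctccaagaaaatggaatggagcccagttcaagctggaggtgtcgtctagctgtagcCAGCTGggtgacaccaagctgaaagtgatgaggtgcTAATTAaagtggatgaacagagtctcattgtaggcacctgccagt
MSI2 intron, chr16:39340127-39340426: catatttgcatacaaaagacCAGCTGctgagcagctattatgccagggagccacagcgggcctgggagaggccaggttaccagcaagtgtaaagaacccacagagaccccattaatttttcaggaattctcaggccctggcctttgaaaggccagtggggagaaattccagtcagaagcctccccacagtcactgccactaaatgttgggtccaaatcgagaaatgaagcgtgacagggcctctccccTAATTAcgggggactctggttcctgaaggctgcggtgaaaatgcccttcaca
CELF4 intron, chr18:45108825-45109124: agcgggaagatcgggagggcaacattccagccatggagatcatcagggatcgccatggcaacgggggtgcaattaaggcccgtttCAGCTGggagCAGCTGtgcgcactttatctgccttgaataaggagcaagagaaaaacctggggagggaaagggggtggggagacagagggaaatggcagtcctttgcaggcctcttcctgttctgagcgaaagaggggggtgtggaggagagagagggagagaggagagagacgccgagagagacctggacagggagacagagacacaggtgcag

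The GALNT17 region, 497 bp wide, held 1 AP-1 and 1 TEAD match and also 1 CAGCTG match, left in small letters. It was called at E80 and at no other stage. The CAMTA1 and AOPEP regions, 275 bp wide each, held 1 AP-1 match each and were likewise called at E80 alone. That of CAMTA1 also held 1 CAGCTG match. The ADGRL2 region, 551 bp wide, held 2 CAGCTG and 1 TAATTA match and was called at E60 alone. The MSI2 region, 481 bp wide, held 1 match of each and was also called at E50. The CELF4 region, 941 bp wide, held 2 CAGCTG matches and 1 TEAD match, and was called at E60 alone.

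Of the 26 motifs searched, AP-1 had the largest difference between the classes in percentage points, although the rare RFX element, given further on, differed more as a ratio. Among distal regions, those over 1000 bp from an annotated transcription start, 40.9% of the E80-specific ones held TGACTCA or TGAGTCA (95% interval 39.9 to 41.9), against 11.2% of the E60-specific ones (10.6 to 11.8). Regions called at both stages lay between, at 26.9% (26.4 to 27.4). At least 2 AP-1 matches were found in 5.04% of E80-specific and 0.73% of E60-specific distal regions, against 3.70% of those called at both.

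The matches sat at the centres of the regions. Within 50 bp of the centre, E80-specific distal regions had 7.42 AP-1 matches per 100 regions per 25 bp, and 400 to 500 bp away they had 0.48. E60-specific regions had 1.59 at the centre and 0.40 in the flanks, and regions called at both had 3.91 and 0.43. The flanks were thus nearly alike while the centres differed. The reversed motif has the same letters in the opposite order, not complemented. It was held by 9.01% of E80-specific and 4.98% of E60-specific distal regions. The reversed letters can overlap an AP-1 match, as they begin with the letters that end it, so they are no separate control.

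TEAD was the other motif of growth and adhesion signalling that was more frequent at E80. ACATTCC was held by 10.5% of E80-specific distal regions (9.88 to 11.1), against 4.27% of E60-specific ones (3.90 to 4.67) and 5.81% of those called at both. Its density at the centre was 1.31 matches per 100 regions per 25 bp in E80-specific regions, against 0.34 in their flanks. In E60-specific regions the centre had 0.34 and the flanks 0.35, so no peak at the centre was seen. AP-1 and TEAD matches occurred together in 3.17% of E80-specific and 0.50% of E60-specific distal regions. At least 1 of the 2 motifs was held by 48.2% of E80-specific regions, 14.9% of E60-specific regions and 31.1% of those called at both.

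The homeobox letters and the proneural E-box went the other way. TAATTA was held by 7.27% of E80-specific distal regions (6.76 to 7.80), against 15.9% of E60-specific ones (15.2 to 16.6) and 9.18% of those called at both. At the centres of E80-specific regions its density was 0.68 per 100 regions per 25 bp, below the 0.89 of their own flanks, whereas E60-specific regions had 1.86 at the centre and 1.03 in the flanks. CAGCTG was held by 21.1% of E80-specific distal regions (20.3 to 21.9), against 32.5% of E60-specific ones (31.6 to 33.4) and 25.3% of those called at both. It peaked at the centre in every class. Its density was 2.31 at the centre and 1.20 in the flanks of E80-specific regions. In E60-specific regions it was 4.04 and 1.23, and in those called at both 2.75 and 1.33. TAATTA and CAGCTG occurred together in 1.41% of E80-specific and 4.72% of E60-specific distal regions. The reversed homeobox letters, which share TAAT with the motif, were held by 5.91% of E80-specific and 9.28% of E60-specific regions. The reversed E-box was rare, in 37 of 9864 and 52 of 10784 regions, or 0.38% and 0.48%, and its intervals overlapped. With so few matches this overlap cannot show whether the reversed letters differ as the motif does.

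**Figure D1:**
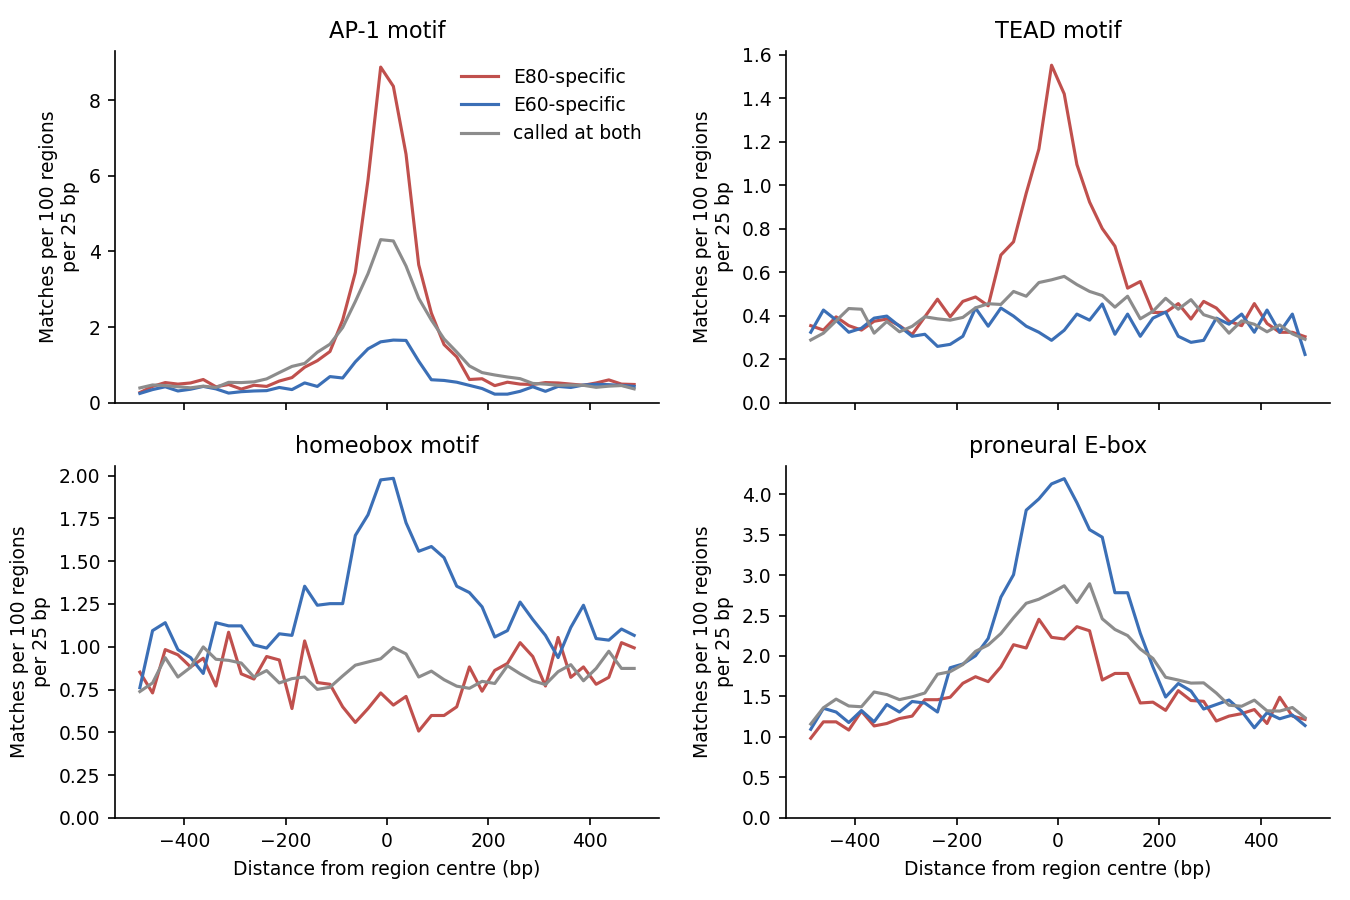
Matches of 4 motifs per 100 distal regions in bins of 25 bp (y axis, linear from 0) by distance from the region's centre in bp (x axis), for E80-specific regions, E60-specific regions and regions called at both. Within 50 bp of the centre AP-1 and TEAD were densest in E80-specific regions, at 7.42 and 1.31. The homeobox motif and the E-box were densest there in E60-specific regions, at 1.86 and 4.04. AP-1 and the E-box also peaked at the centres of the other classes.

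Of the 26 motifs, 5 had a higher and 12 a lower share in E80-specific than in E60-specific distal regions with intervals that did not overlap, and 9 had overlapping intervals. The 5 higher ones were AP-1, TEAD, NR2F, RUNX and STAT. AGGTCA, the element of NR2F and other nuclear receptors, was held by 21.4% of E80-specific and 12.05% of E60-specific regions, against 15.7% of those called at both. TGTGGT, bound by RUNX factors, was held by 22.2% and 16.8%, and TTCNNNGAA, the STAT element, by 11.5% and 9.10% of E80-specific and E60-specific regions. The TTC of the STAT element also lies in the TEAD letters.

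Among the 12 lower ones, ATGCAAAT, bound by POU factors, was held by 2.25% of E80-specific and 5.00% of E60-specific distal regions. The element of the ciliary RFX factors was held by 0.30% and 1.46%. ACAAAGG, bound by SOX factors, was held by 8.25% of E80-specific and 11.6% of E60-specific regions, and TGACAG, bound by MEIS factors, by 18.9% and 23.1%. CACCTG, an E-box of ZEB and Snail repressors, was held by 12.5% and 19.3%, and GGGCGG, the GC box, by 7.41% and 14.7%. The GC box was more frequent still in regions called at both, at 17.2%. Of these 17 motifs, 7 also had intervals apart when their letters were reversed: AP-1, TAATTA, MEIS, NR2F, RUNX, TFAP2 and the GC box. For the others the reversed letters decide little where they were rare, as for RFX, with 0 matches in either class. The reversed GC box was held by 8.23% of E80-specific and 15.4% of E60-specific regions, a difference about as large as that of the GC box itself. Its letters GGCGGG and the GC box both lie in GGGCGGG, so the reversed letters overlap the motif and are no separate control. Reversed MEIS letters were held by 12.04% and 14.9%, and they too can overlap the motif, as TGACAGT holds both. Reversed NR2F letters were held by 20.8% and 16.6%, so that share differs for the reversed letters as well. Both strands were searched for every motif, and a match shows the letters alone.

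E80-specific regions were narrower and poorer in GC than E60-specific ones. The AP-1, TEAD, TAATTA and CAGCTG shares were therefore also taken within classes of width and GC. For the other motifs this was not done, so their differences are not separated from width and GC. The median width was 282 bp in E80-specific regions, 351 bp in E60-specific regions and 618 bp in those called at both, and the median GC content was 47.5%, 49.2% and 54.5%. In distal regions above 250 and up to 400 bp wide, AP-1 was held by 43.2% of E80-specific and 13.3% of E60-specific regions, and TAATTA by 7.4% and 16.3%. At 42 to 50% GC, AP-1 was held by 43.4% and 12.8%, and TAATTA by 7.8% and 17.9%. Below 42% GC the AP-1 shares were 43.5% and 16.2%, and from 50% GC they were 36.2% and 7.7%. In introns AP-1 was held by 2032 of 5075 E80-specific and 607 of 5315 E60-specific regions. The shares were 43.7% and 11.3% in intergenic regions, and 29.0% and 8.8% in exons. The difference in AP-1 was thus seen in every class of width, GC and position examined.

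Promoters were a small part of the discordant regions, and smaller at E80. A region within 1000 bp of a transcription start was counted as promoter. Promoters made up 5.67% of E80-specific regions (593) and 10.2% of E60-specific regions (1230), against 30.4% of regions called at both (13880). Among the discordant promoters, 32.5% were E80-specific (30.4 to 34.7), whereas among distal discordant regions the share was 47.8% (47.1 to 48.5). Introns held 48.5% of E80-specific and 44.2% of E60-specific regions, and intergenic sequence 39.8% and 38.0%. The promoter classes also differed in CpG. A ratio of observed to expected CpG over 0.6 was found in 26.8% of E80-specific promoters (23.3 to 30.6), against 51.1% of E60-specific ones (48.2 to 53.9) and 77.4% of those called at both. AP-1 was held by 26.5% of the E80-specific promoters, against 5.20% of the E60-specific ones and 4.76% of those called at both.

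**Figure D2:**
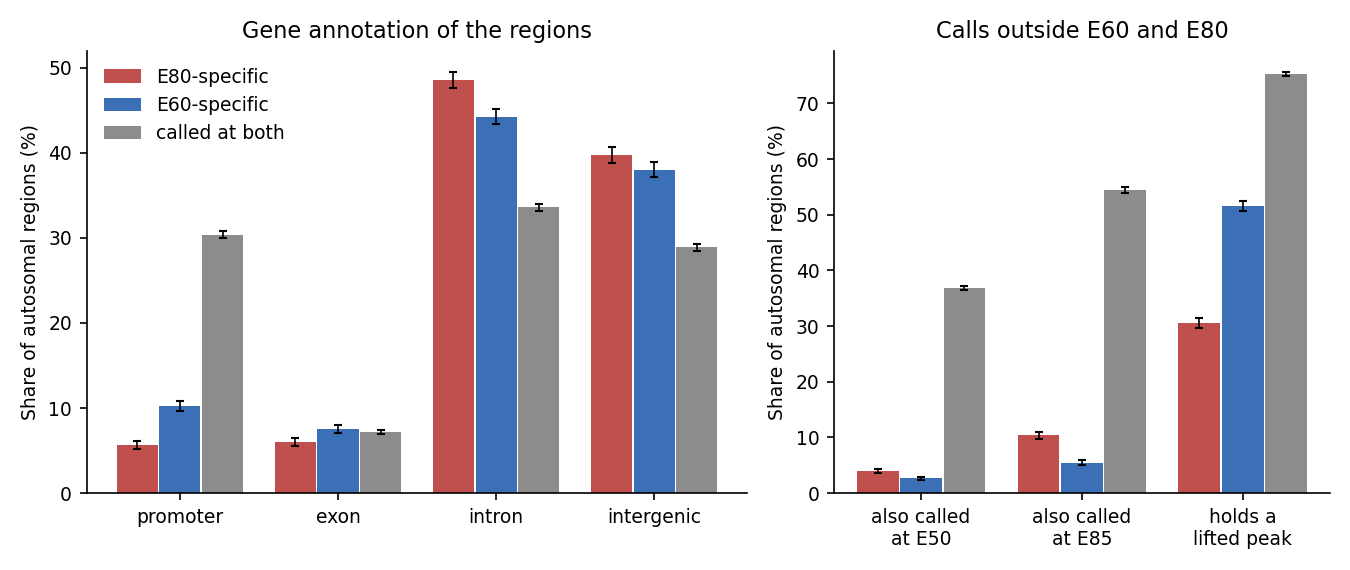
Share of E80-specific regions, E60-specific regions and regions called at both (y axis, percent of each class, from 0) by gene annotation (left) and by calls outside E80 and E60 (right), with exact 95% intervals as bars. The grey bars show the promoter-rich regions called at both, at 30.4%, and E60-specific regions held lifted peaks more often (51.7%) than E80-specific ones (30.6%).

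Few of the discordant regions were also called at E50 or E85, the stages that the choice did not use. At E85, 10.4% of E80-specific regions were called (9.80 to 11.0), against 5.46% of E60-specific regions (5.06 to 5.88) and 54.5% of those called at both. At E50, 3.90% of E80-specific regions were called (3.54 to 4.29), against 2.66% of E60-specific regions (2.38 to 2.97) and 36.8% of those called at both. Although E50 is the stage next to E60, the share called there was higher in the E80-specific regions. In regions without a lifted peak (a peak merged in from other sets, described below) that difference was smaller and the intervals overlapped, at 2.09% of E80-specific (1.78 to 2.45) and 1.67% of E60-specific regions (1.36 to 2.03), while the E85 shares were 7.23% and 3.89%. Among promoters the E50 shares were 11.1% (8.71 to 13.9) and 2.68% (1.85 to 3.75) in E80-specific and E60-specific regions, and the E85 shares 16.4% and 4.80%.

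Regions called at E50 and E85 and at only 1 of the middle stages numbered 364 with E80 and 253 with E60. These lack a call at a stage that lies between stages with a call. Their AP-1 shares, promoters included, were 13.5% (10.1 to 17.4) with E80 and 3.95% (1.91 to 7.15) with E60. The AP-1 share of distal E80-specific regions was highest in those called at no other stage, 43.7%, and was 16.9% in those also called at E85 and not E50. The same shares in E60-specific distal regions were 11.5% and 5.91%.

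Lifted peaks, which the authors merged into the same regions from sets that the labels do not define, divided the classes as well. A lifted peak lay in 30.6% of E80-specific regions (29.7 to 31.5), against 51.7% of E60-specific regions (50.8 to 52.6) and 75.3% of those called at both. Where a lifted peak was present, the regions were 3196 E80-specific and 6206 E60-specific, an E80 share of 34.0%. Where none was present they were 7261 and 5808, and the E80 share was 55.6% (54.7 to 56.4), on the other side of an even split. The motif differences were seen in either case: AP-1 was held by 45.7% of E80-specific and 15.4% of E60-specific distal regions without a lifted peak, and by 29.7% and 7.0% of those with one.

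Some discordant regions lay close to a region with a peak of the other stage. Distances to such peaks, here and below, run between merged regions, whose bounds other peaks may set. They do not show how near a region was to a call at the other stage. The nearest region with an E60 peak was a median of 10825 bp away from an E80-specific region. For an E60-specific region the nearest one with an E80 peak was 9482.5 bp away. The nearest region of the other stage was within 200 bp for 2.69% of E80-specific and 4.21% of E60-specific regions, and within 1 kb for 10.4% and 13.3%.

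Gene loci were counted as the gene body with 5 kb upstream, from NCBI's annotation of Mmul_10. Of 15481 autosomal protein-coding loci with a region called at E80 or E60, 2727, or 17.6%, had more E80-specific than E60-specific regions. A further 3139, or 20.3%, had more E60-specific regions, 673 had equal numbers and 8942 had no discordant region, so the median difference was 0. Over all loci 45.5% of the discordant regions were E80-specific. The direction of these counts depended on which regions were used: without regions that hold a lifted peak, 2355 loci had more E80-specific and 1813 more E60-specific regions, and in distal regions alone the counts were 2485 and 2477. At the ends of the distribution the E60 side was heavier, with 33 loci that had at least 5 more E80-specific regions and 130 with at least 5 more E60-specific ones. At least 3 E80-specific regions and no E60-specific one were found at 147 loci, and the reverse at 247.

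The largest E80 excess was at CAMTA1. This gene, which encodes a calmodulin-binding transcription activator and spans chr1:216747437-217726690, had 17 E80-specific regions, 3 E60-specific ones and 26 called at both. Of its 17, 6 held AP-1 and 1 was also called at E85. KCNMA1, the calcium-activated potassium channel gene at chr9:60112455-60947862, had 15 E80-specific and 4 E60-specific regions, with AP-1 in 5 of the 15 and in none of the 4.

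AOPEP, which encodes an aminopeptidase, had 11 E80-specific regions and no E60-specific one beside 19 called at both. DLGAP2, a postsynaptic scaffold gene, had 12 and 2, and ASIC2, a channel opened by acid, had 9 and 2. PTPRE, a receptor-type phosphatase gene, had 9 and 0, and in 6 of its 9 a lifted peak was present. DPF3, which encodes a subunit of the BAF chromatin remodeller, had 9 and 1, and PAPPA, which encodes a metalloprotease of the IGF system, had 8 and 1, with AP-1 in 6 of the 8. SHISA9, an auxiliary protein of AMPA receptors, GALNT17, a glycosyltransferase, TMTC2, an O-mannosyltransferase, and PLEKHA7, an adherens-junction protein, each had 7 E80-specific regions and no E60-specific one. Across the 12 E80 loci of the rule, 36 of the 117 distal E80-specific regions held AP-1, or 30.8% (22.6 to 39.97). This is below the 40.9% of all distal E80-specific regions, and its interval overlaps that of the 137 distal regions called at both in the same loci, of which 27.7% held AP-1 (20.4 to 36.0). TEAD was held by 2.56% of the 117 (0.53 to 7.31), against 10.5% of all distal E80-specific regions. Calls at E85 were present in 7.7% of the 117.

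On the E60 side 3 genes of RNA-binding proteins came first. MSI2, a Musashi RNA-binding protein gene at chr16:39118886-39552607, had 4 E80-specific and 18 E60-specific regions beside 43 called at both, so that 47 of its regions were called at E80 and 61 at E60. CELF4, a regulator of splicing and mRNA stability in neurons, had 0 and 13, and RBFOX1, a neuronal splicing factor spanning chr20:5320850-7802213, had 0 and 12. Of the 12 at RBFOX1, 4 held TAATTA, 4 held CAGCTG and 3 held AP-1.

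CTNND2, a catenin of neuronal junctions, had 1 E80-specific and 12 E60-specific regions. PTPRD, a synaptic receptor phosphatase, had 0 and 10, and SDK2, an immunoglobulin adhesion protein of synapses, had 1 and 11. NFIA, a transcription factor of glial and late progenitor programmes, had 1 and 11, and its relative NFIX had 0 and 9. ADGRL2, a latrophilin receptor, FAM49A, a RAC1-binding protein, and RALGAPA2, of a RAL GTPase-activating protein, each had 0 E80-specific and 9 E60-specific regions. Across the 12 E60 loci of the rule 10.7% of the 131 distal E60-specific regions held AP-1 (6.0 to 17.3), 17.6% held TAATTA and 51.9% held a lifted peak. Over all distal E60-specific regions the shares were 11.2%, 15.9% and 50.4%.

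**Figure D3:**
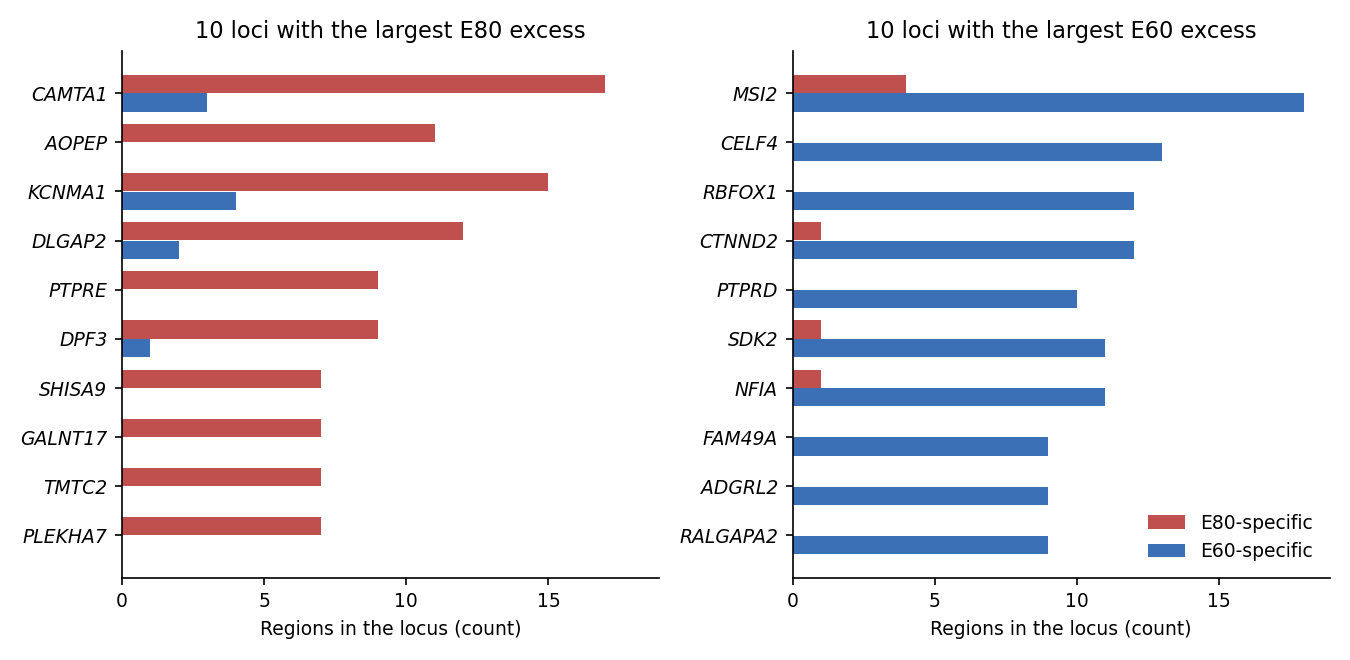
Number of E80-specific (red) and E60-specific (blue) regions (x axis, count from 0) at the 10 loci with the largest excess on each side (y axis). MSI2 had the longest bar, with 18 E60-specific against 4 E80-specific regions, and CAMTA1 the longest on the E80 side, with 17 E80-specific against 3 E60-specific regions.

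Loci were chosen by a difference in counts, which favours genes with many regions, and the next in order were close. DLG2, a postsynaptic scaffold gene, had 12 E80-specific and 5 E60-specific regions and KCNH1, a potassium channel gene, had 6 and 0. GSE1 had 9 and 18, and ZNF536, a zinc-finger gene of neurons, had 0 and 8.

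Genes were then grouped in 41 lists of cell types and pathways, which hold 852 autosomal genes. In 31 lists with at least 20 discordant regions the median E80 share was 37.0%. It was below the 45.5% of all loci in 22 of them and above it in 9. The exact interval of the share lay wholly below 45.5% in 9 lists, wholly above it in 2 and included it in the other 20. Without regions that hold a lifted peak the share over all loci was 55.1%, and counts without lifted peaks are to be read against that share. Counts below give E80-specific regions first, then E60-specific ones, summed over the list's loci. For most lists the number of members with an excess on either side is given, and the median difference per locus was 0 unless stated otherwise.

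Nuclear factor I stood at the E60 end. Its 4 genes had 1 E80-specific and 30 E60-specific regions beside 59 called at both, and all 4 had more E60-specific ones (median difference -8.5). NFIA had 1 and 11, NFIX 0 and 9, NFIB 0 and 8 and NFIC, named after its values were seen, 0 and 2. All 4 promoters were called at both stages, and 28 of the 30 E60-specific regions were distal. Without regions that hold a lifted peak the counts were 0 and 11.

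Deep-layer genes lay on the same side. Their list had 6 and 33, with 0 of 12 members on the E80 side and 9 on the E60 side (median -1). FOXP2, a transcription factor of corticothalamic neurons, had 0 and 5, and SOX5, which times the birth of deep-layer neurons in mice, had 2 and 6. FEZF2, a determinant of subcerebral projection neurons, named after its values were seen, had 0 and 3, and its promoter was called at E60 and not at E80. NFIA, with 1 and 11, is on this list as well. The upper-layer list was not apart from all loci. It had 10 and 22, an E80 share of 31.25% (16.1 to 50.01), with 3 of 13 members on the E80 side and 7 on the E60 side (median -1). CUX2 had 0 and 5 and CUX1 2 and 7, while UNC5D, a netrin receptor, had 5 and 2. In regions without a lifted peak the deep-layer list had 4 and 9, with 2 members on the E80 side and 5 on the E60 side. The difference of its share from that of all loci was then -24.3 points (± 26.2, so the interval includes 0). The upper-layer list had 7 and 7 in such regions.

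The interneuron and ventral forebrain list had 6 and 22, with 3 of 19 members on the E80 side and 9 on the E60 side. GAD1, which makes GABA, had 0 and 5, GAD2 had 0 and 3, and the homeobox gene DLX1 had 0 and 3. Intermediate progenitor and proneural genes had 1 and 8, and 5 of the 8 were at ELAVL4, a neuronal RNA-binding protein gene. The list of neuronal splicing and RNA-binding genes had 27 and 85, with 3 of 25 members on the E80 side and 16 on the E60 side (median -1). Beside MSI2, CELF4 and RBFOX1 on the E60 side, RBFOX2, a splicing factor also active outside neurons, had 3 and 0, MBNL2 4 and 1 and KHDRBS3 2 and 0.

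Progenitor lists had fewer E80-specific than E60-specific regions, but their shares were not apart from the 45.5% of all loci. The radial glia list had 11 and 24, an E80 share of 31.4% (16.9 to 49.3), with 3 of 18 members on the E80 side and 6 on the E60 side. GLI3, a transcription factor of the hedgehog pathway and dorsal identity, had 1 and 9, PROM1 0 and 3 and PAX6 0 and 2, whereas VIM, an intermediate filament of radial glia, had 2 and 0. The outer radial glia list had 11 and 23, a share of 32.4% (17.4 to 50.5). PTPRZ1 had 0 and 7 and its ligand PTN 0 and 6, whereas the integrin gene ITGB5 had 5 and 2. Without lifted peaks the counts were 6 and 9 for radial glia and 7 and 8 for outer radial glia, and 5 outer radial glia members were then on the E80 side and 4 on the E60 side. All 18 promoters of radial glia genes and all 14 of outer radial glia genes were called at both stages.

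Dorsal telencephalon patterning genes had 5 and 25, with 3 of 20 members on the E80 side and 12 on the E60 side (median -1). The bHLH gene TCF4 had 1 and 6 and ZIC1 0 and 3, whereas NR2F1, a nuclear receptor of caudal cortex, had 2 and 0. In the MEIS, PBX and TALE list, with 7 and 29, MEIS2 had 0 and 7 and PBX3 0 and 5. The SOX list had 4 and 20, with 0 of 15 members on the E80 side and 9 on the E60 side (median -1). SOX5 and SOX6 had 2 and 6 each, and SOX2, a factor of neural stem cells, had 0 and 2. In regions without a lifted peak the SOX counts were 4 and 3, so the direction of that list turned, while dorsal patterning had 1 and 7 and the TALE list 5 and 10. The differences from the share of all loci were then 2.02 points for SOX (± 35.8) and -21.8 for the TALE list (± 24.9), and both intervals include 0. For dorsal patterning the difference was -42.6 (± 26.2).

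Adhesion and guidance genes of neurons made up the largest counts. The list of IgLON and other immunoglobulin adhesion proteins had 50 and 113, with 5 of 26 members on the E80 side and 18 on the E60 side (median -2). DSCAML1 had 5 and 13 and CADM1 1 and 7, whereas NFASC, a protein of the axon initial segment, had 4 and 2. The axon guidance list had 58 and 110, with 8 of 42 members on the E80 side and 24 on the E60 side (median -1). The Slit receptor gene ROBO2 had 5 and 12, its relative ROBO1 had 0 and 5, and PLXNC1 had 0 and 5. PLXNA4, a semaphorin receptor, had 6 and 2, and SEMA5A 4 and 1. In the 57 distal E80-specific regions of guidance loci 31 held AP-1, or 54.4% (40.7 to 67.6), against 10 of 102 distal E60-specific ones, or 9.80%. Over all distal regions these shares were 40.9% and 11.2%, and the interval of the guidance loci includes the 40.9%.

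The cadherin list, which holds the catenins, had 41 and 65, with 12 of 35 members on the E80 side and 14 on the E60 side. CTNND2 had 1 and 12, CDH4 3 and 10 and CDH20 0 and 6. CDH13, a cadherin anchored by a lipid, had 6 and 1. Without regions that hold a lifted peak the cadherin counts were 32 and 27, an E80 share just below that of all loci (difference -0.88 points, ± 13.3). Those of axon guidance were then 39 and 46 (-9.24, ± 11.0), and both intervals include 0.

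Matrix and focal adhesion genes lay at the other end. The integrin and extracellular matrix list had 55 and 29, with 18 of 46 members on the E80 side and 7 on the E60 side. COL5A1 had 5 and 0, COL5A2 4 and 0, both chains of a fibrillar collagen, and the laminin-binding integrin gene ITGA3 4 and 0. LAMA1, a laminin chain of basement membranes, had 0 and 3 and HSPG2, the perlecan gene, had 0 and 2. All 55 E80-specific regions of this list were distal, and 17 of them held AP-1, or 30.9% (19.1 to 44.8), against 40.9% of all distal E80-specific regions. Its counts without lifted peaks were 39 and 10.

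The focal adhesion and actin list had 63 and 47, with 17 of 36 members on the E80 side and 11 on the E60 side. VCL, the vinculin gene, had 4 and 0, MYH9, a non-muscle myosin, 4 and 0 and ACTN4, an actin crosslinker, 5 and 1. TNS1, the tensin gene, had 2 and 6 and LIMA1 0 and 3. Of 57 distal E80-specific regions at these loci 27 held AP-1, or 47.4% (34.0 to 61.0), against 4 of 40 E60-specific ones, or 10.0%. The shares over all distal regions, 40.9% and 11.2%, were near these.

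Synapse and channel genes were found on both sides, and no interval of these lists was apart from the 45.5%. The postsynaptic scaffold list had 48 and 42, with DLGAP2 at 12 and 2 and DLG2 at 12 and 5 against MAGI2 at 0 and 7 and DLGAP1 at 3 and 8. Without lifted peaks the scaffold list leaned more to E80, with 37 and 16 and with 11 members on the E80 side and 4 on the E60 side, a share 14.7 points above that of all loci, and its exact interval did not reach the 55.1%. Potassium channel genes had 46 and 47, with KCNMA1 and KCNH1 on the E80 side and KCNC1, at 0 and 4, and KCNH7, at 1 and 5, on the E60 side. Calcium and sodium channel genes had 44 and 44. CACNA1D, an L-type channel, had 4 and 0, while CACNA1G, a T-type channel, and CACNA2D2 had 0 and 6 each. The presynaptic list had 31 and 44, with STX1A, a syntaxin of vesicle release, at 3 and 0 and CPLX2, a complexin, at 0 and 6.

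Glutamate receptor genes had 30 and 51 (median -1). GRIA1 and GRM7 had 3 and 0 each, whereas GRIA4 had 0 and 5 and GRM5 1 and 5. GABA receptor genes had 12 and 9, with GABBR2 at 5 and 0 and GABRB2 at 0 and 3, and 7 and 9 without lifted peaks. Genes of the neuronal cytoskeleton had 25 and 29. GAP43, a growth cone protein, had 5 and 0 and MAP1B 3 and 0, whereas MAP2, a dendritic microtubule protein, had 0 and 8 and the kinesin KIF5C 0 and 4.

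Signalling lists had smaller counts. The list of FGF, EGF and BDNF signalling had 32 and 39, with FGF12, an intracellular member of the FGF family, at 3 and 0 and FGFR1 at 1 and 4. The TEAD and Hippo list had 19 and 18. WWC1, a Hippo regulator, had 6 and 3 and WWTR1, the TAZ gene, 3 and 1, and TEAD1 had 0 and 2. The genes of AP-1 subunits had 6 and 6, and 14 of their 15 promoters were called at both stages. TGF-beta, BMP and ID genes had 18 and 31, with SMAD3 at 4 and 1 and SMAD7 at 0 and 3. WNT signalling had 24 and 46, with TLE1, a Groucho corepressor, at 1 and 7 and the receptor LRP5 at 3 and 1. Notch signalling had 22 and 38, with the coactivator MAML3 at 2 and 9 and the ligand DLL4 at 0 and 4. Hedgehog signalling had 12 and 18, and 9 of the 18 were at GLI3. Insulin and IGF genes had 23 and 18, of which PAPPA held 8 and 1, and BAF remodeller genes had 19 and 23, of which DPF3 held 9 and 1. The progenitor timing list had 9 and 11.

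Without regions that hold a lifted peak, WNT signalling had 17 and 17 and Notch signalling 16 and 16. These even counts were still below the 55.1% of all loci in such regions, with a difference of -5.12 points each. Hedgehog signalling had 10 and 6 (7.38), BAF genes 15 and 5 (19.9) and glutamate receptors 22 and 21 (-3.96).

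**Figure D4:**
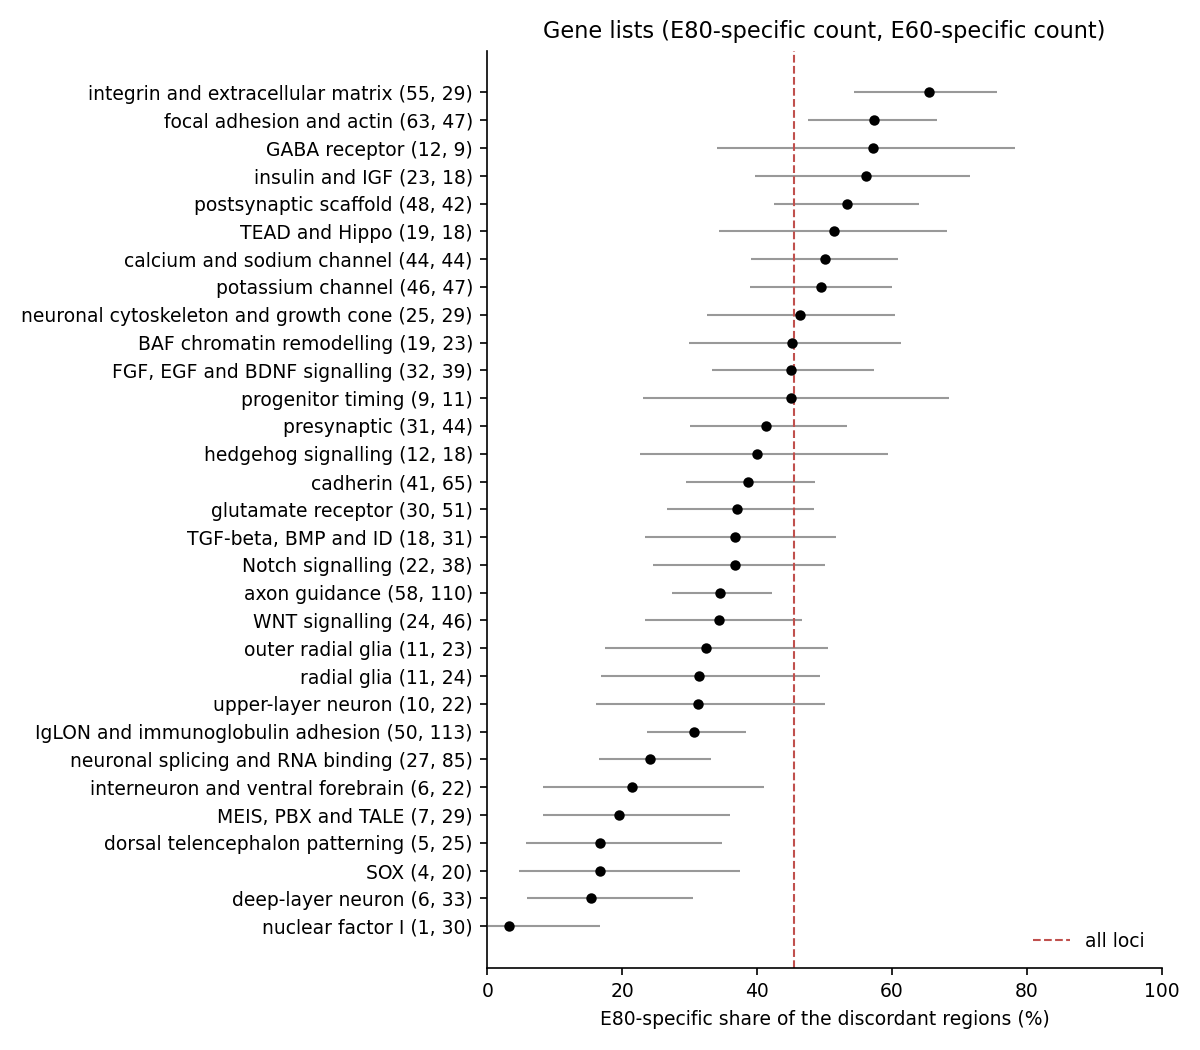
E80-specific share of the discordant regions (x axis, percent from 0 to 100) for the gene lists with at least 20 discordant regions (y axis, with the E80-specific and then the E60-specific count in brackets), with exact 95% intervals for counting error and the 45.5% of all loci as a dashed line. The integrin and extracellular matrix list lay highest, with 55 and 29, and nuclear factor I lowest, with 1 and 30.

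Markers of other cells that the cultures could hold had small counts. Over all loci 28.2% of the regions called at E80 or E60 were discordant. Microglia genes had 0 and 0, and 2 of 14 promoters were called, each at both stages. Endothelial genes had 8 and 9 beside 15 called at both, so that 53.1% of their regions were discordant (34.7 to 70.9), more often than over all loci, with 4 of 12 promoters called at E80 and 5 at E60. Mural and mesenchymal genes had 0 and 1, with 7 of 15 promoters called at E80 and 8 at E60. Choroid plexus and hem genes had 3 and 9 beside 17 called at both, or 41.4% discordant (23.5 to 61.1), astrocyte genes 5 and 3 beside 42, and oligodendrocyte lineage genes 7 and 10 (median -1). Cell cycle genes had 2 and 1 and cytosolic ribosomal protein genes 3 and 2, and 20 of 21 and 30 of 32 of their promoters were called at both stages. The part of cell composition in the list counts was not tested.

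Genes whose promoter was called at only 1 of the stages were counted apart. Of 13327 autosomal protein-coding genes with a promoter called at E80 or E60, 224, or 1.68%, were called at E80 and not E60, and 513, or 3.85%, at E60 and not E80. Of the 224, 24.1% had a promoter call at E50 (18.7 to 30.3) and 29.9% at E85 (24.0 to 36.4). Of the 513, 4.29% had a call at E50 (2.71 to 6.42) and 5.85% at E85 (3.98 to 8.24). Of the 12590 genes called at both, 70.1% were called at E50 and 83.6% at E85. The promoters missing at E60 were called at the other stages more often than those missing at E80.

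With at least 2 further regions of the same class in the locus, 7 such genes remained on the E80 side. ROBO2 was the first, although its locus held 5 E80-specific and 12 E60-specific regions. FNDC1, a fibronectin-domain gene, had 4 and 1, and TMCO4 had 5 and 2. ERBB4, a neuregulin receptor of interneurons, had 3 and 3, NDUFA10, a subunit of respiratory complex I, had 3 and 0, and RTN4R, the Nogo receptor, had 3 and 2. Of these 7 promoters only that of RTN4R was called at E50, and none was called at E85.

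The first 10 on the E60 side were led by TNR, the tenascin-R gene, with 5 E80-specific and 8 E60-specific regions in its locus, and PTPRT, a receptor phosphatase, with 3 and 7. NMNAT2, an axon survival enzyme, and CACNA2D2 had 0 and 6 each. DSCAM, an adhesion molecule, and SLIT1, a repulsive guidance ligand, had 2 and 6 each. MYT1, a zinc-finger factor of neurogenesis, and RPH3A, rabphilin of synaptic vesicles, had 0 and 5 each, and BNC2 had 1 and 6. FSTL4 had 5 and 5. None of these 10 promoters was called at E50 or E85.

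Discordant regions lay near others of their own class along the chromosomes. Of 22451 pairs of neighbouring discordant regions, 57.1% were of the same class (56.5 to 57.8), where the class sizes alone give 50.2%. The share was 82.6% for neighbours under 1 kb apart (79.7 to 85.3), 62.6% from 1 to 10 kb, 57.4% from 10 to 50 kb, 55.5% from 50 to 100 kb and 53.2% from 100 to 500 kb. From 500 kb up it was 54.6% (51.2 to 58.0). Regions of 1 locus or neighbourhood are therefore not independent of each other, which the intervals do not take into account.

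**Figure D5:**
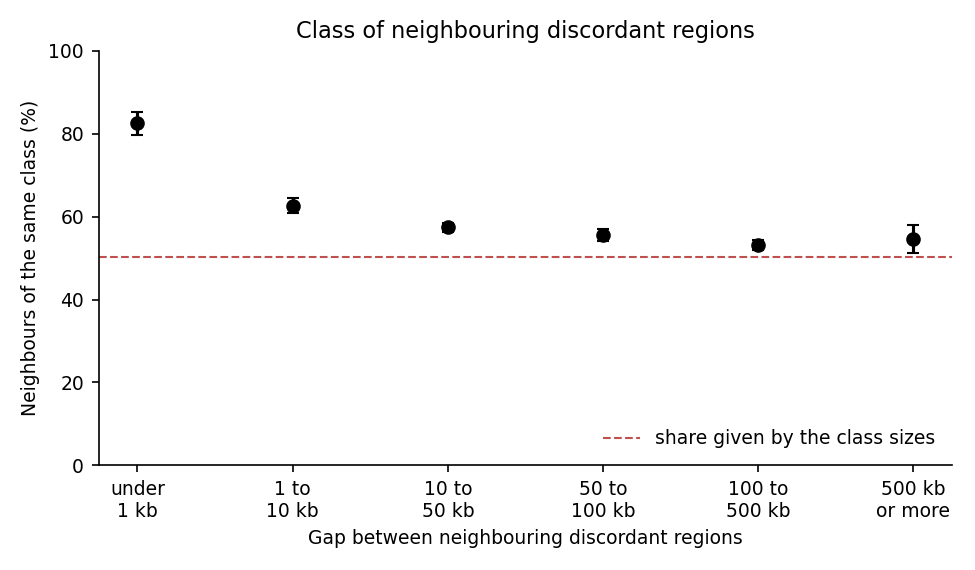
Share of neighbouring discordant regions of the same class (y axis, percent from 0) by the gap between them (x axis, classes of distance), with exact 95% intervals and the 50.2% given by the class sizes as a dashed line. The share was 82.6% under 1 kb and 53.2% at 100 to 500 kb.

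Runs of at least 5 consecutive discordant regions of the same class held 28.0% of the E80-specific regions in 439 runs and 37.7% of the E60-specific regions in 654 runs. The class sizes alone, in a random order, give 14.7% for E80 and 23.4% for E60, so the larger E60 class has the higher share on that account as well. Runs of at least 10 numbered 52 for E80 and 80 for E60. The longest E80 run had 22 regions over chr7:62775723-64535071, with AKAP13, a kinase anchor protein, and HOMER2, a synaptic scaffold, among the genes inside, and 10 of its 21 distal regions held AP-1. The next had 20 regions around SHC4, an adaptor of receptor kinases, and GALK2, with AP-1 in 10 of 19. The others had 18 regions around CLCA2 and DDAH1, and 16 around ABCA4, CNN3 and F3, the tissue factor gene. The last had 16 around HDAC4, a class II deacetylase, TWIST2 and ASB1. In that order AP-1 was held by 9 of 16, 3 of 16 and 4 of 13 of their distal regions. Over all distal E80-specific regions the share was 40.9%.

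The longest E60 run had 34 regions over chr16:69719348-70535662, with 11 at SDK2 and 20 intergenic, and 4 of its 33 distal regions held AP-1. The next had 20 regions around MEIS2, a TALE homeobox gene, with AP-1 in 1 of 20 and TAATTA in 4. The others had 17 regions around NFIB, 17 around CDKAL1, E2F3 and SOX4, a SOX factor of young neurons, and 16 around MPPED2, ELP4 and PAX6. In that order AP-1 was held by 4 of 14, 0 of 16 and 0 of 15 of their distal regions, and TAATTA by 1, 4 and 3. The longest E60 run had TAATTA in 4 of 33. Over all distal E60-specific regions the shares were 11.2% for AP-1 and 15.9% for TAATTA. Each of these 10 runs also held regions called at both stages between its members, 44 in the longest E80 run and 30 in the longest E60 run.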

How the data were processed

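ATAC-seq of 8 libraries, 2 technical libraries of 1 culture at each of E50, E60, E80 and E85, was deposited by the authors as 1 table of merged regions without a header. Per the submitters' processing notes, the tools included Bowtie2 2.5.1, SAMtools 1.15 and cutadapt 4.4, and the build was rheMac10. How peaks were called, at which threshold, with what Tn5 offset and whether on pooled libraries is not given in the sources used here. In the deposited table each region carries the names of its peaks, and the stage code in these names was the only measurement used. The 8 unnamed columns of values, which carry no names, were not used, so depth per library is unknown here.

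All positions were found within the Mmul_10 sequences, and NCBI gene models gave promoters (within 1000 bp of a start), exons, introns and loci (body and 5000 bp upstream). Motifs were searched on both strands within 150 bp of the centre of each region; TAATTA and CAGCTG are palindromes. A region that holds lifted peaks may have its bounds and centre from them. Shares have exact Clopper-Pearson intervals at 95%; no test was run, as 1 culture a stage gives none.

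The members, lists and motifs were chosen with earlier results of these data known. Loci named were the 12 with the largest difference on each side (ties by fewer regions of the other class, then fewer shared), up to 3 members a list and side with a difference of at least 2, up to 10 promoters a side and the loci of the 5 longest runs a side. Some genes that these rules pick are not reported here. Names without a match in the annotation numbered 7 (TLE4, TUBB3, SCN2A, PCDH8, AMOTL2, TGIF1 and RPS6). Loci that overlap share regions. The counting was tested on simulated data. Python 3.11.15, pandas 2.3.3, SciPy 1.17.1 and matplotlib 3.10.9 were used.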

Additional observations from a re-analysis of the deposited data

How the results depend on the processing

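No paired analysis was possible because the deposited peak names carry stages and no libraries, and for the same reason no library could be left out. Of the alternatives to the main results, 80 moved a value by less than its counting interval, or a count by less than 1.5 times, 22 moved it by more, and 1 turned it. The locus counts of each side were scored apart, so a change in which side had more loci is not in this tally. Below, differences are E80-specific minus E60-specific regions, in percentage points. Without regions that hold a lifted peak the E80 share of discordant regions turned to the other side of an even split, at 55.6%, and the locus counts turned with it, to 2355 loci with more E80-specific and 1813 with more E60-specific regions. The differences were then -3.13 for promoters, 3.34 for calls at E85, 0.42 for calls at E50 (± 0.48, so the interval includes 0) and -9.87 for TAATTA. Neighbours of the same class then exceeded the share from class sizes by 5.22 points. With no peak of the other stage within 1 kb the E80 share was 47.4% and the AP-1 difference 30.9. In distal regions alone the E80 share was 47.8%, and the larger locus count changed sides, with 2485 loci for E80 and 2477 for E60. A motif window of 100 bp gave 27.7 for AP-1, 5.46 for TEAD, -7.07 for TAATTA and -9.39 for CAGCTG, and reversed motifs gave 4.03, 0.33, -3.37 and -0.11. Chosen after the data were seen were 4 alternatives. GC of 42 to 50% alone gave -10.1 for TAATTA, widths above 250 and up to 400 bp gave 7.66 for TEAD and -13.7 for CAGCTG, regions called at neither E50 nor E85 gave an E80 share of 45.2% and 32.2 for AP-1, and leaving out mitochondrial-like regions moved no main result beyond its interval.

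The E80 share of a list minus that of all loci changed sign in 15 cases. The FGF, EGF and BDNF list, near 0 in the main count, had 2.37 in regions of at most 1 kb, 0.0018 in distal regions, 0.80 in gene bodies and 0.030 in regions called at neither E50 nor E85. The BAF list, also near 0, had 1.48 in regions of at most 1 kb, 0.11 with the X chromosome, 3.43 with no peak of the other stage within 1 kb, 2.31 in distal regions and 19.9 without lifted peaks. Without lifted peaks the GABA receptor list had -11.4, TEAD and Hippo -2.18, hedgehog 7.38 and SOX 2.02, each with an interval that includes 0. With no peak of the other stage within 1 kb the neuronal cytoskeleton list had -1.57 and the TGF-beta list 0.49. The causes were not tested. Depth per library was not used, so a region missing at a stage cannot be told from a region called just below the threshold.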

Other observations

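The X chromosome, left out of the counts above, held 195 E80-specific and 438 E60-specific regions beside 1126 called at both. Its E80 share was 30.8% (exact 95% interval 27.2 to 34.6), while the shares of the 20 autosomes lay between 41.7% on chromosome 19 and 49.4% on chromosome 8. Mitochondrial-like regions, which share 20 or more stretches of 25 bases with the mitochondrial genome, numbered 16 among the E80-specific and 3 among the E60-specific regions.

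The core letters of CTCF, an architectural factor of chromatin, were rarer in discordant than in common distal regions. They were held by 1.08% of E80-specific (0.88 to 1.30) and 1.73% of E60-specific regions (1.50 to 2.00), against 3.07% of those called at both (2.89 to 3.27).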
